A study of Arabidopsis thaliana with 12 samples.

Results

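FUM1 (AT2G47510) and FUM2 (AT5G50950) are the fumarases of Arabidopsis thaliana, and they were followed here across 12 single-colour Agilent arrays of seedlings. The seedlings were wild type, a glk1 glk2 double mutant or carriers of a GLK1 repressor fusion. Members were the non-control probes whose target name was 1 of these 2 loci, which gave 3 of 37478 probes and 2 of the 25665 loci with a probe. FUM2 was chosen because its signal was lower than wild type in both modified lines on these same arrays, so its differences from wild type are given as a description without a test. FUM1 came with it as its paralog. Both loci passed the filter on dim probes, which left 20640 loci in the tests.

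All groups were whole seedlings of the ecotype Columbia-0 at 2 weeks of age, without treatment, and the growth medium was MS agar that held 1% sucrose. Days had 16 h of light and nights 8 h, at 23 °C. The wild type was untransformed. The glk1 glk2 double mutant lacks the paralogous transcription factors GLK1 and GLK2, which promote chloroplast development. The 35S:GLK1-SRDX plants carried a transgene, driven by the broadly active 35S promoter, for GLK1 fused to the SRDX repression domain. The labels mention no glk mutation in the transgenic plants and do not give the number of independent transgenic lines. Each group had 4 arrays, and each RNA came from many seedlings harvested together. Whether the replicates were separate cultures is not stated, so the tests weigh differences against a spread between samples that may be technical in part.

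Fumarase interconverts fumarate and malate. FUM1 is the mitochondrial enzyme of the tricarboxylic acid (TCA) cycle. FUM2 is cytosolic, and in Arabidopsis leaves it is needed for the daytime build-up of fumarate, which serves as a store of fixed carbon beside starch and has been linked to growth on high nitrogen and to acclimation to cold.

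The arrays passed the check of their labels for the double mutant. GLK2 was 183-fold lower in glk1 glk2 than in wild type (limma adjusted p = 4.7e-09) and GLK1 4.68-fold lower (adjusted p = 0.00296). On glk1 glk2 array 4 the processed intensity of GLK1 was 1034 scanner units, against 294 to 475 on the other mutant arrays. That of GLK2 was 92.3 units against 34.2 to 54.7. All wild-type arrays were higher, at 1848 units or more for GLK1 and 7397 or more for GLK2. In GLK1-SRDX the GLK1 probe was 1.80-fold higher than in wild type without passing the threshold of 0.05 (adjusted p = 0.0649), and whether it reads the transgene is not known. It passed in 6 of 23 alternatives (adjusted p down to 0.00649), and with the arrays' mean level of root markers as a covariate its log2 difference went from 0.85 to 0.016. GLK2 was 1.54-fold higher there (adjusted p = 0.0513, passing in 8 of 23 alternatives). The share of probes well above background ranged from 63.9% to 68.4% over the arrays. Wild-type and glk1 glk2 arrays were split evenly over slides 1 and 2, and the whole GLK1-SRDX group was on slide 3, so effects of that slide and of the transgene cannot be told apart. Correlations between arrays of a group ran from 0.943 to 0.993 across loci, with the lowest in glk1 glk2. Array 3 of glk1 glk2 stood apart, and without it 3177 loci passed against wild type in place of 671.

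FUM2 carried the larger difference from wild type of the pair. Its signal was lower in glk1 glk2 and lower still in GLK1-SRDX, and it was seen by 2 probes. The probe for transcript AT5G50950.2, the brighter of the pair and the probe that stood for the locus, gave processed intensities of 13603, 11738, 9033 and 7060 scanner units on wild-type arrays 1 to 4. On the glk1 glk2 arrays it gave 1805, 1651, 2009 and 1863 units. On the GLK1-SRDX arrays it gave 1032, 1073, 865 and 1574 units. The lowest wild-type array was above every array of either line. In wild type the signal was higher on arrays 1 and 2, which shared a slide, than on arrays 3 and 4. Array 4 was the highest of the GLK1-SRDX group.

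**Figure D1:**
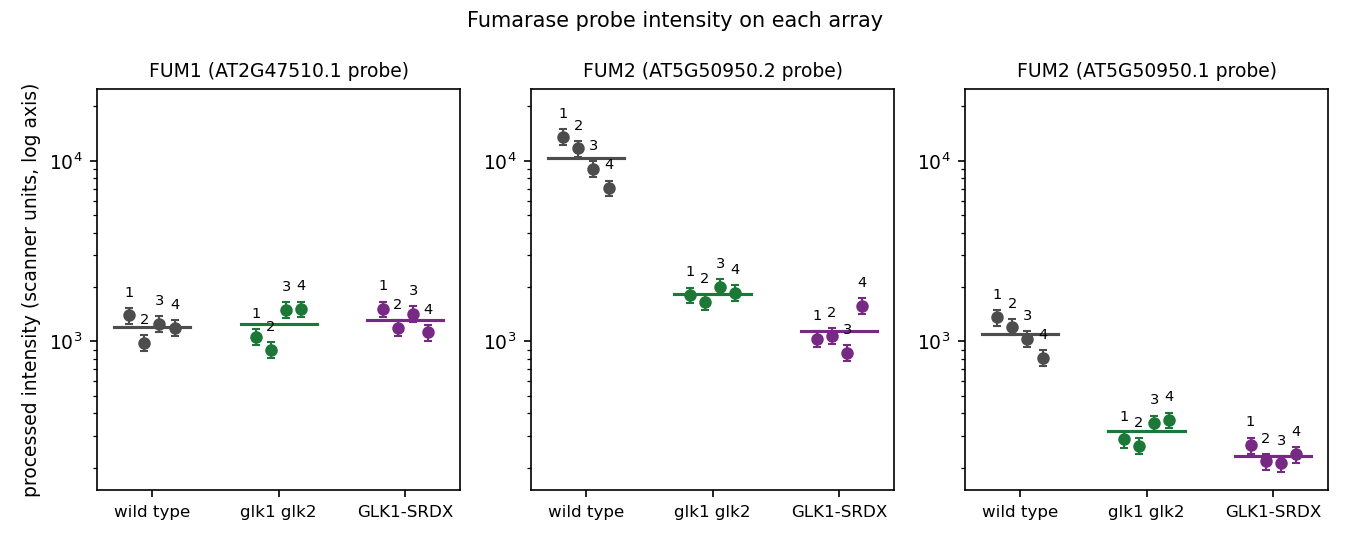
Processed intensity (scanner units, log axis) of the 3 fumarase probes on each of the 12 arrays, in 3 panels. Points are arrays numbered by replicate, error bars are the error the scanner software gives for the spot, and horizontal lines are group means; wild-type FUM2 points run from 7060 to 13603 units for the AT5G50950.2 probe, above all points of both lines, while the FUM1 groups overlap.

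After each array was scaled to its 75th percentile, the AT5G50950.2 signal was 5.34-fold lower in glk1 glk2 than in wild type (log2 difference -2.42 ± 0.23 SE, n = 4 per group). In GLK1-SRDX it was 8.90-fold lower (-3.15 ± 0.23 SE, n = 4 per group). Among all tested loci, ordered from the lowest log2 difference, FUM2 stood at place 46 of 20640 in glk1 glk2 and at place 21 in GLK1-SRDX. The groups did not overlap in either comparison, which over all loci held for 9.66% in glk1 glk2 and 28.1% in GLK1-SRDX. At an adjusted p under 0.05, 71 loci (0.344%) were lower in both lines. FUM2 was picked from these comparisons, so nothing further is read from its place in them. The comparisons share the wild-type arrays.

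The difference was present on each slide that held both genotypes. Within slide 1 the glk1 glk2 arrays were lower than wild type by a log2 difference of -2.55 in the mean, and within slide 2 by -2.28 (2 arrays per genotype on each slide). Blocking on replicate number, which pairs wild-type and glk1 glk2 arrays, left the difference at -2.42 and brought its SE to 0.077. Without glk1 glk2 array 3 it was -2.41 ± 0.25 SE.

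The second FUM2 probe, for transcript AT5G50950.1, gave the same order of the groups with smaller differences. Wild-type arrays 1 to 4 gave 1360, 1204, 1035 and 810 units. The glk1 glk2 arrays gave 287, 264, 353 and 366 units, and the GLK1-SRDX arrays 266, 216, 211 and 237 units. As for the brighter probe, every wild-type array was above every array of the lines. The scaled signal of AT5G50950.1 was 3.35-fold lower in glk1 glk2 (log2 difference -1.74 ± 0.13 SE) and 4.59-fold lower in GLK1-SRDX (-2.20 ± 0.13 SE, n = 4 per group). The spot was well above background on all 12 arrays, as were those of the other fumarase probes.

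The FUM2 probes thus differed in how far they were apart on an array. The log2 intensity of AT5G50950.2 minus that of AT5G50950.1 was 3.12 to 3.32 in wild type (mean 3.21 ± 0.10 SD, n = 4). It was 2.35 to 2.66 in glk1 glk2 (2.54 ± 0.14) and 1.95 to 2.73 in GLK1-SRDX (2.26 ± 0.35). The wild-type arrays lay above all arrays of both lines, and the lines overlapped. This shows an unequal change of the probes and says nothing of transcript amounts. The probe sequences were not used here, so which transcripts each probe reads, and whether either reads FUM1, was not tested.

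GLK1-SRDX had less FUM2 signal than glk1 glk2 in the mean, but the order of the lines did not pass the threshold. For AT5G50950.2 the signal was 1.67-fold lower in GLK1-SRDX (log2 difference -0.74 ± 0.23 SE, 95% interval -1.24 to -0.24, limma adjusted p = 0.0681, n = 4 per group). Over all loci 9.26% passed in this comparison. GLK1-SRDX array 4, at a scaled log2 signal of -0.31, lay above glk1 glk2 array 4 at -0.45, and the other GLK1-SRDX arrays lay below the whole mutant group. An exact two-sided permutation test over the 8 arrays gave p = 0.0571, where 0.0286 is the smallest value that 70 arrangements allow. Without GLK1-SRDX array 4 the log2 difference was -0.93 with an adjusted p of 0.0227, and the adjusted p ran from 0.0227 to 0.228 over all alternatives.

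With the AT5G50950.1 probe the lines were closer and did not overlap. The log2 difference was -0.46 ± 0.13 SE (95% interval -0.74 to -0.17, adjusted p = 0.0507 in the limma fit over probes), and the exact two-sided permutation p was 0.0286, the smallest possible. Groups that do not overlap were found for 17.2% of all loci between these lines.

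**Figure D2:**
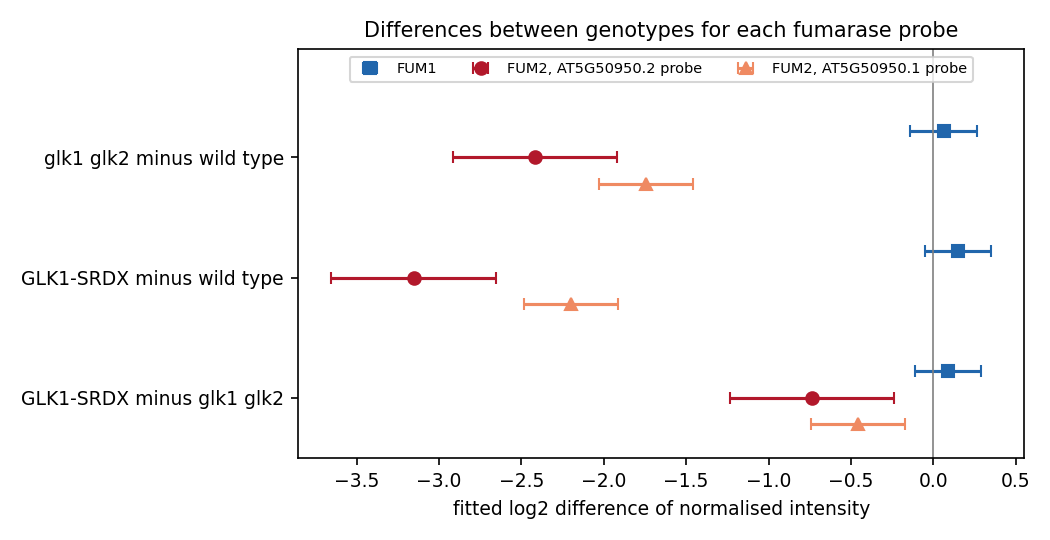
Fitted log2 differences of scaled intensity for each fumarase probe in the 3 comparisons, with 95% intervals as bars (n = 4 arrays per group). Both FUM2 probes lie left of 0 in every comparison, from -3.15 to -0.46, while the intervals of FUM1 include 0; the FUM2 differences from wild type were used to choose the gene.

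FUM1, the mitochondrial fumarase, passed in no comparison. Its probe gave 1396, 983, 1252 and 1188 units on wild-type arrays 1 to 4. On the glk1 glk2 arrays it gave 1062, 901, 1495 and 1509 units, and on the GLK1-SRDX arrays 1509, 1188, 1427 and 1120 units. The 3 groups overlapped, and arrays 3 and 4 of glk1 glk2 were higher in unscaled intensity than arrays 1 and 2.

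The scaled FUM1 signal differed from wild type by a log2 difference of 0.06 ± 0.09 SE in glk1 glk2 (95% interval -0.14 to 0.26, limma adjusted p = 0.751, where 3.25% of all loci passed). In GLK1-SRDX the difference was 0.15 ± 0.09 SE (95% interval -0.05 to 0.35, adjusted p = 0.295, where 14.4% of loci passed). Between the lines it was 0.09 ± 0.09 SE (95% interval -0.11 to 0.29, adjusted p = 0.627). Exact two-sided permutation tests over 8 arrays, without pairing, gave p = 0.543, 0.229 and 0.257 in this order. With the replicate block the FUM1 difference in glk1 glk2 was 0.06 ± 0.06 SE (limma adjusted p = 0.496). The intervals leave room for a change of up to about 0.35 on the log2 scale in GLK1-SRDX. When arrays were scaled to their medians, which moved all loci by 0.18 between GLK1-SRDX and wild type, FUM1 was at 0.33 in that comparison and passed (adjusted p = 0.0393). In the authors' value table FUM1 was at -0.12 in glk1 glk2 (adjusted p = 0.776), where that table moved all loci by -0.19.

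Taken on the same array, FUM2 changed relative to FUM1 without any scaling between arrays. FUM2 was chosen for its lower signal in both lines on these arrays, so its distance from wild type here is a description and no added support. The log2 intensity of FUM2 (AT5G50950.2) minus FUM1 was 3.29, 3.58, 2.85 and 2.57 on wild-type arrays 1 to 4. It was 0.76, 0.87, 0.43 and 0.30 on the glk1 glk2 arrays, and -0.55, -0.15, -0.72 and 0.49 on the GLK1-SRDX arrays. The wild-type arrays stood apart from both lines, and GLK1-SRDX array 4 reached into the range of glk1 glk2. The within-array differences show an unequal change of these genes and not which transcript was the more abundant, since the probes differ.

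**Figure D3:**
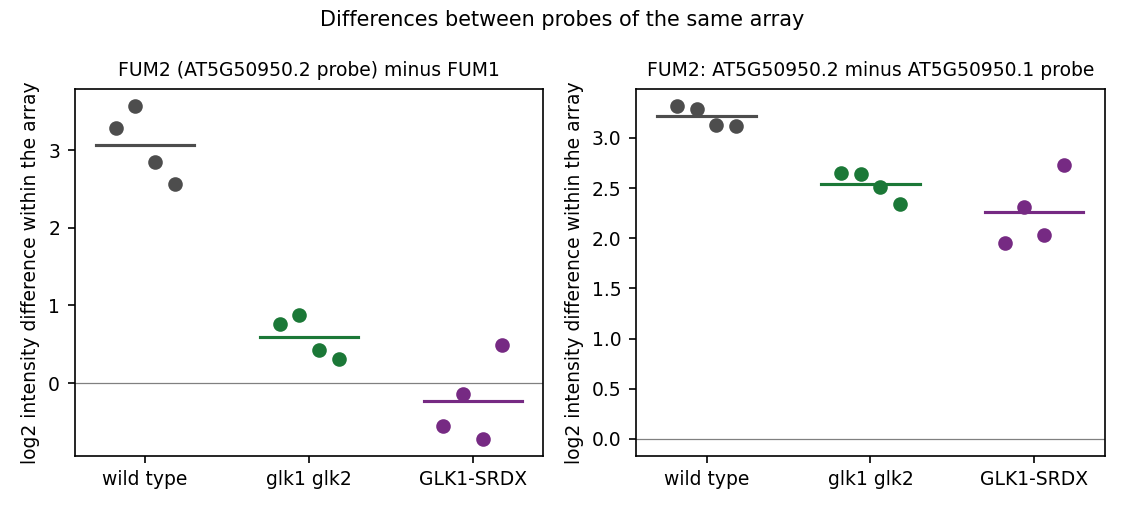
Log2 intensity differences between probes of the same array for each of the 12 arrays (points, in order of replicate 1 to 4 from left to right; lines are group means of 4 arrays). FUM2 minus FUM1 runs from 2.57 to 3.58 in wild type, 0.30 to 0.87 in glk1 glk2 and -0.72 to 0.49 in GLK1-SRDX, and the difference between the FUM2 probes is also largest in wild type. FUM2 was chosen for its lower signal in both lines on these arrays.

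The mean level of root markers differed between arrays, and in whole seedlings fewer cells of a type and less RNA per cell cannot be told apart. The mean log2 level of 20 root markers, relative to wild type, was -0.37 to 0.24 on wild-type arrays, -2.02 to 0.18 on glk1 glk2 arrays and -1.66 to -1.10 on GLK1-SRDX arrays. Of these markers 18 to 20 were well above background on each array. Single markers differed from wild type by -1.80 to 0.059 in glk1 glk2 (median -1.07). In GLK1-SRDX they ran from -4.57 for CASP5 to 1.08 for NRT2:1 (median -1.48), and SCR was at 0.00079. NRT2:1 was well above background on 1 wild-type array and 3 GLK1-SRDX arrays. In limma 0 of 20 passed in glk1 glk2, where 3.25% of all loci passed at the same adjusted threshold. At an unadjusted p under 0.05 there were 12. The share of all loci at that unadjusted threshold was not counted, so unadjusted counts, here and for the lists, are read no further. In GLK1-SRDX 9 of 20 fell, where 6.3% of all loci fell. On array 3 of glk1 glk2 the root markers were at 0.18, within the wild-type range, and FUM2 was at -2.42 relative to the wild-type mean. As a description, with the root-marker level as a covariate FUM2 was at -2.23 ± 0.28 SE in glk1 glk2 and -2.88 ± 0.33 SE in GLK1-SRDX. Root-marker levels of wild type and GLK1-SRDX did not overlap, so covariate and genotype cannot be fully told apart in that comparison. Calls kept or lost there with this covariate, throughout the text, therefore do not show what root content contributed.

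The 10 leaf mesophyll markers had mean log2 levels of -0.32 to 0.35 in wild type, -0.63 to 0.34 in glk1 glk2 and -0.38 to -0.15 in GLK1-SRDX, so the groups overlapped, and all 10 were well above background on every array. Limma called 1 of these 10 lower in GLK1-SRDX, near the 6.3% of all loci, and 0 in glk1 glk2 (1 at an unadjusted p under 0.05). Guard cell markers (7 loci, 1 of which is also in the list of dicarboxylate carriers and channels) ran from -0.36 to 0.30 in wild type, -0.13 to 0.30 in glk1 glk2 and -0.89 to -0.37 in GLK1-SRDX, where 2 of the 7 fell against wild type and 3 of the 7 against glk1 glk2 (3.58% of all loci were lower there). Phloem companion cell markers (4 loci) stayed between -0.39 and 0.12 on all arrays, and 1 of the 4 fell in GLK1-SRDX. With so few loci these counts are read no further. The part of the marker differences in the FUM2 difference was not tested.

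**Figure D4:**
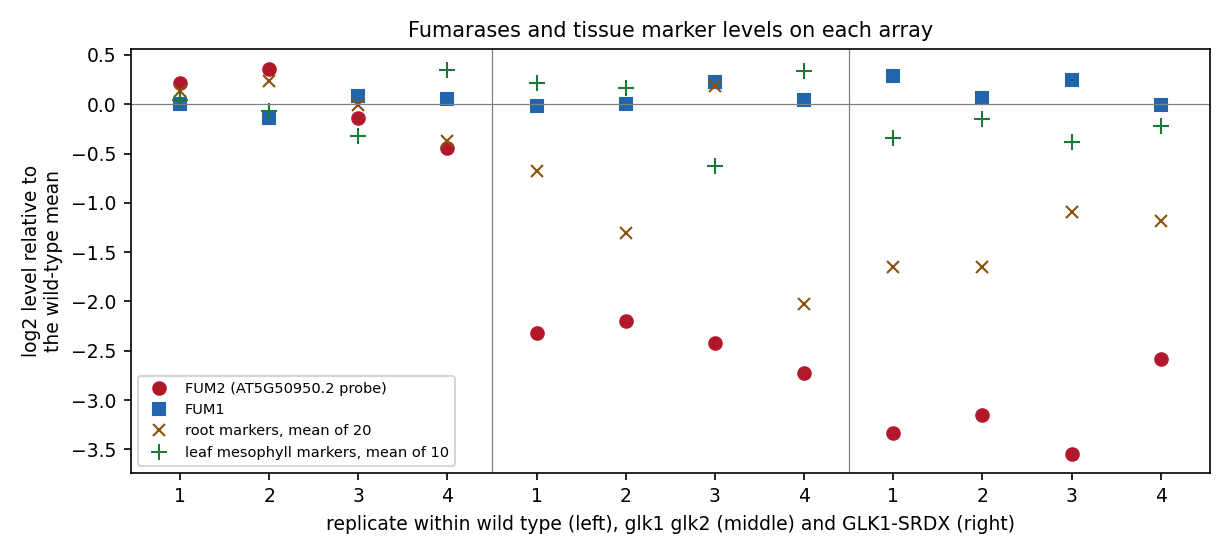
Log2 level relative to the wild-type mean on each of the 12 arrays for FUM2 (AT5G50950.2 probe), FUM1, the mean of 20 root markers and the mean of 10 leaf mesophyll markers. FUM2 lies between -2.73 and -2.20 on the glk1 glk2 arrays and between -3.54 and -2.59 on the GLK1-SRDX arrays, while the root markers of glk1 glk2 spread from -2.02 to 0.18.

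The enzymes and carriers around fumarate were followed through 5 lists of 75 loci, of which 69 were tested. In glk1 glk2 4 of the 69 passed, all higher than wild type (5.8%, against 3.25% of all loci, of which 2.14% were higher and 1.11% lower). With a replicate block 5 of the 69 passed, all higher, where 1365 of the 20640 loci passed (896 higher and 469 lower). SDH5, ALMT6 and AT5G10920 were called in both fits. AT3G55410 lost its call (adjusted p = 0.0597), and the aconitase gene ACO1 (log2 difference 0.39, adjusted p = 0.0429) and the guard cell anion channel gene ALMT12 (0.45, adjusted p = 0.0425), both named after their values were seen, gained theirs. In GLK1-SRDX 10 passed, 6 higher and 4 lower (14.5%, against 14.4% of all loci, with 8.1% higher and 6.3% lower). Between the lines 7 passed, 3 higher and 4 lower in GLK1-SRDX (10.1%, against 9.26% of all loci, with 5.68% higher and 3.58% lower). The median log2 difference of the lists was 0.074, 0.041 and -0.014 in this order, and that of all loci 0.00067, 0.012 and -0.0052. The members ran from -0.84 to 0.89 in glk1 glk2 and from -1.40 to 1.13 in GLK1-SRDX.

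These counts depended on single arrays. In glk1 glk2 the count was 15 without mutant array 3 (10 higher and 5 lower), 3 without wild-type array 3 and 2 without any single one of the other arrays. Over all 20640 loci 3177 passed without mutant array 3 (1378 higher and 1799 lower), 661 without wild-type array 3 and 229 to 519 otherwise. In GLK1-SRDX against wild type the list count was 6 without wild-type array 1, 4 without wild-type array 2, 4 without GLK1-SRDX array 1 or array 2, 5 without GLK1-SRDX array 3 and 7 to 12 otherwise. Over all loci it was 1523 to 1826 on leaving out these named arrays and 2035 to 4444 otherwise. Scaling to the median gave 20 higher and 2 lower there, and quantile normalization 3 higher and 4 lower. Over all loci median scaling gave 3481 higher and 933 lower, and quantile normalization 1777 higher and 1198 lower. With the root covariate 15 members passed there, 4 higher and 11 lower, and NIA1 was the 1 call shared with the 10. Of all loci 3042 passed with this covariate (1684 higher and 1358 lower). Between the lines the list count was 18 without glk1 glk2 array 3, 4 without glk1 glk2 array 2 or GLK1-SRDX array 1, 2 or 3, and 5 to 8 otherwise, and the authors' value table gave 4 higher and 2 lower. Over all loci 2684 passed without glk1 glk2 array 3, 1005 to 1396 without the arrays that gave 4, and 1084 to 2053 otherwise. The value table gave 1402 higher and 148 lower over all loci.

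Of 28 tested enzymes of the TCA cycle, in which FUM1 acts, 2 passed in each comparison with wild type (7.14%, against 3.25% of all loci in glk1 glk2 and 14.4% in GLK1-SRDX). In glk1 glk2 2 rose, SDH5, a subunit of succinate dehydrogenase (1.21-fold, limma adjusted p = 0.04), and AT3G55410 (1.19-fold, adjusted p = 0.0482, and 0.0597 with the replicate block), and 0 fell. With the root covariate their adjusted p was 0.0921 and 0.151. In GLK1-SRDX the aconitase gene ACO3 rose 1.32-fold (adjusted p = 0.0382, and 0.107 with the root covariate at a log2 difference of 0.43 against 0.40) and SDH1-2 was 2.05-fold lower (log2 difference -1.03 ± 0.25 SE, adjusted p = 0.0233). SDH1-2 encodes a flavoprotein subunit of succinate dehydrogenase, the enzyme that forms fumarate in the cycle. Its probe was dim, at 68.4 to 112 units in wild type, 73.9 to 163 in glk1 glk2 and 30.0 to 55.2 in GLK1-SRDX. It was also 2.66-fold lower in GLK1-SRDX than in glk1 glk2 (adjusted p = 0.00701), the 1 change among the 28 in that comparison, where 9.26% of all loci passed. With normexp background correction SDH1-2 did not pass against wild type (adjusted p = 0.224) or glk1 glk2 (adjusted p = 0.722), and with the root covariate its log2 difference from wild type was -0.30 (adjusted p = 0.411). SDH5, AT3G55410, ACO3 and the difference of SDH1-2 from wild type passed in 7, 4, 11 and 14 of 23 alternatives, and each lost the call on leaving out some single arrays, with adjusted p up to 0.133, 0.153, 0.105 and 0.0715.

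Enzymes of malate and oxaloacetate, the metabolites next to fumarate, had 0 of 17 calls in glk1 glk2 by limma (5 at an unadjusted p under 0.05). Of all loci 3.25% passed there. The smallest p in glk1 glk2 was that of MDH, the plastidial NAD-dependent malate dehydrogenase, at a log2 difference of 0.26 (adjusted p = 0.102). Against wild type GLK1-SRDX had 3 of 17 calls, where 14.4% of all loci passed. In GLK1-SRDX MDH rose 1.25-fold (adjusted p = 0.0238) and the cytosolic malate dehydrogenase gene c-NAD-MDH1 1.22-fold (adjusted p = 0.022). With the root covariate neither passed (log2 differences of 0.27 and 0.24, adjusted p = 0.142 and 0.127). PPC3, a phosphoenolpyruvate carboxylase gene, gave 6352 to 7986 units in wild type, 2944 to 8801 in glk1 glk2 and 1745 to 3055 in GLK1-SRDX. It fell 2.64-fold in GLK1-SRDX (log2 difference -1.40 ± 0.28 SE, adjusted p = 0.00927, at most 0.0308 on leaving out any array), and with the root covariate it was at -0.48 (adjusted p = 0.122). MDH and c-NAD-MDH1 passed in 13 and 14 of 23 alternatives and lost the call without some single arrays, with adjusted p up to 0.0761 and 0.0634. Between the lines 0 of 17 passed in limma (5 unadjusted), where 9.26% of all loci passed. PMDH2, a peroxisomal malate dehydrogenase gene, had the smallest p there (log2 difference -0.55, adjusted p = 0.0967, and 0.00397 without glk1 glk2 array 3).

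**Figure D5:**
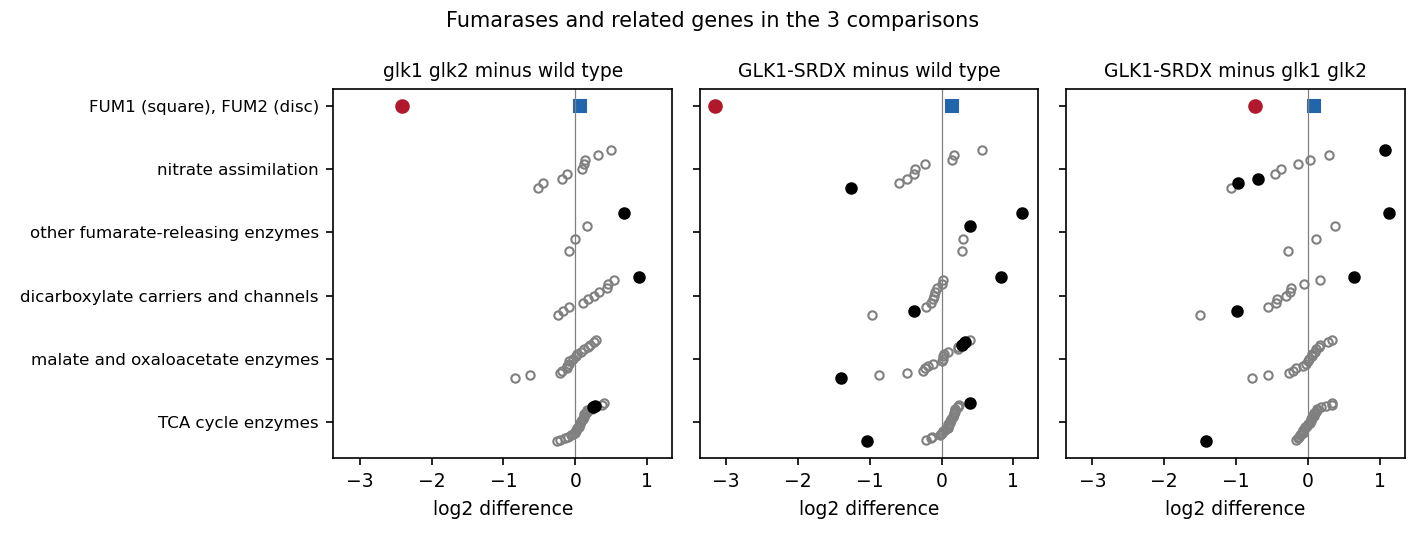
Log2 differences of FUM1, FUM2 and the 69 tested loci of the 5 lists in the 3 comparisons. Filled black points passed an adjusted p under 0.05 (limma) and open points did not; FUM2, chosen for its differences from wild type, is at -2.42 and -3.15 there, and the list members run from -0.84 to 0.89 in glk1 glk2 and from -1.40 to 1.13 in GLK1-SRDX.

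Of 11 dicarboxylate carriers and channels, limma called 1 in glk1 glk2 (3.25% of all loci), 2 in GLK1-SRDX (14.4%) and 2 between the lines (9.26%). With so few loci these counts are read no further. ALMT6 rose in glk1 glk2, and TDT rose and AT1G25480 fell in GLK1-SRDX. ALMT6, a vacuolar channel of guard cells that conducts malate and fumarate, gave 104 to 155 units in wild type, 196 to 270 in glk1 glk2 and 108 to 122 in GLK1-SRDX. It rose 1.86-fold in glk1 glk2 (adjusted p = 0.00333) and was 1.98-fold lower in GLK1-SRDX than in glk1 glk2 (adjusted p = 0.000757). Both calls were lost with normexp background correction (adjusted p = 0.928 and 0.682), and that in the mutant also with the authors' value table (adjusted p = 0.0761). Guard cell markers were also lower in GLK1-SRDX than in glk1 glk2, with a median log2 difference of -0.82 over 7 loci beside -0.99 for ALMT6, and their part in it was not tested. TDT, the dicarboxylate transporter of the vacuolar membrane, rose 1.77-fold in GLK1-SRDX (log2 difference 0.83 ± 0.16 SE, adjusted p = 0.00706, and 0.72 ± 0.24 SE with an adjusted p of 0.0674 with the root covariate) and was 1.56-fold higher there than in glk1 glk2 (adjusted p = 0.0277, up to 0.0688 on leaving out single arrays). AT1G25480 fell 1.31-fold in GLK1-SRDX (adjusted p = 0.0211, up to 0.0608 on leaving out single arrays and 0.204 with the root covariate, passing in 13 of 23 alternatives).

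Of 4 loci listed as other fumarate-releasing enzymes, limma called 1 in glk1 glk2 (3.25% of all loci), 2 in GLK1-SRDX (14.4%) and 1 between the lines (9.26%). With so few loci these counts are read no further. The called loci were AT5G10920 and AT4G18440, and the reference table gives neither a symbol. AT5G10920 gave 3229 to 4196 units in wild type, 4413 to 8523 in glk1 glk2 and 4394 to 5023 in GLK1-SRDX. It rose 1.60-fold in glk1 glk2 (adjusted p = 0.00374) and 1.32-fold in GLK1-SRDX (adjusted p = 0.0146, and 0.051 without GLK1-SRDX array 2). AT4G18440 gave 2689 to 5488 units in wild type, 3032 to 6486 in glk1 glk2 and 7722 to 10532 in GLK1-SRDX, where it rose 2.18-fold over wild type (adjusted p = 0.00873) and 2.20-fold over glk1 glk2 (adjusted p = 0.0108). With the root covariate neither passed in GLK1-SRDX against wild type (log2 differences of 0.17 and 0.64 against 0.40 and 1.13, adjusted p = 0.225 and 0.137). In the authors' value table AT5G10920 passed in neither line (adjusted p = 0.294 in glk1 glk2 and 0.16 in GLK1-SRDX).

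Nitrate assimilation had 0 of 9 calls in glk1 glk2 by limma (1 at an unadjusted p under 0.05), where 3.25% of all loci passed. It had 1 of 9 in GLK1-SRDX (14.4% of all loci) and 3 of 9 between the lines (9.26%). With so few loci these counts are read no further. In glk1 glk2 the smallest p was that of NIR1, the nitrite reductase gene, at a log2 difference of 0.49 (adjusted p = 0.21, and 0.0349 without mutant array 3). In GLK1-SRDX NIA1, a nitrate reductase gene, was 2.39-fold lower than in wild type (adjusted p = 0.0483, up to 0.116 on leaving out single arrays, passing in 9 of 23 alternatives). With the root covariate its log2 difference went from -1.25 to -2.28 (adjusted p = 0.00909). Against glk1 glk2 GLK1-SRDX had 1.95-fold less NIR1 (adjusted p = 0.0139, and 0.116 with the authors' value table). It had 1.62-fold less signal of the nitrate reductase gene NIA2 (adjusted p = 0.0478, up to 0.132 on leaving out single arrays and 0.248 over all alternatives). NIA2 passed in 7 of 23 alternatives. Signal of GSR 1, a cytosolic glutamine synthetase gene, was 2.10-fold higher (adjusted p = 0.0316, up to 0.0908 on leaving out single arrays, passing in 14 of 23 alternatives). The range of NIA1 was wide in glk1 glk2, from 28327 to 135124 units, against 42796 to 83545 in wild type and 17422 to 29919 in GLK1-SRDX.

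The genes beside the fumarase loci on their chromosomes were not called against wild type. Beside FUM2 lie AT5G50930 (log2 difference -0.05 in glk1 glk2 and 0.10 in GLK1-SRDX, limma adjusted p = 0.819 and 0.556), with 1 untested gene between, and NBP35, which encodes a scaffold protein of iron-sulphur cluster assembly (0.15 and 0.17, adjusted p = 0.502 and 0.332). Beside FUM1 lie AT2G47500 (-0.21 and -0.51, adjusted p = 0.503 and 0.0628) and ERF71, whose probe was well above background on 5 of 12 arrays (0.74 and 0.47, adjusted p = 0.554 and 0.664). AT2G47500 passed in GLK1-SRDX without glk1 glk2 array 4 (adjusted p = 0.0385).

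Among 9079 other tested loci with a symbol, those whose log2 levels followed FUM2 most closely over the 12 arrays were AFP3, IAA29, VPS22, HFR1 and OBP2, with Pearson correlations of 0.934, 0.930, 0.918, 0.917 and 0.913. The arrays fall into the 3 genotype groups, so these correlations mainly follow the group means. Correlations of the deviations from the group means were 0.53, 0.50, 0.38, 0.42 and -0.080. These genes were picked for their likeness and their differences are a description. IAA29, an Aux/IAA repressor of auxin responses, gave 779 to 2174 units in wild type, 235 to 398 in glk1 glk2 and 77.5 to 229 in GLK1-SRDX, with log2 differences from wild type of -1.99 and -3.08. HFR1, a basic helix-loop-helix factor of light signalling, was at -0.71 and -1.49. AFP3, of the family of ABI5-binding proteins, was at -0.62 and -0.68, the Dof transcription factor gene OBP2 at -0.43 and -0.54, and VPS22, a subunit of an endosomal sorting complex, at -0.15 and -0.20.

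The 5 loci closest to FUM1 were TPR3, LOJ, MSI3, WIP3 and CCR1, with correlations of 0.925, 0.914, 0.871, 0.856 and 0.855 over the 12 arrays. Correlations of their deviations from the group means were 0.899, 0.948, 0.899, 0.859 and 0.844. These loci too were picked for their likeness on the same arrays. FUM1 differed little between the group means, so the choice itself favoured high correlations of the deviations, and nothing further is read from them. The probes of LOJ (23.0 to 94.8 units) and WIP3 (59.1 to 147 units) were dim. FUM1 itself spread over 0.23 to 0.29 on the log2 scale within a group.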

How the data were processed

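Group and replicate came from the sample titles. The deposited scanner files hold a linear spot intensity. The software was Agilent Feature Extraction 9.1.3.1, as named in the submitters' processing notes, and per the file headers its processed intensity is net of background. The series value table, also an intensity, was deposited by the authors. Each of its columns equalled the processed intensity over a fixed factor for each genotype, which was 974 in wild type, 1077 in glk1 glk2 and 892 in GLK1-SRDX. The table is therefore linear, uncentred and of the same direction, with column medians of 0.0798 to 0.168. What set these factors is unknown here.

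Each array's log2 processed intensities were expressed relative to its 75th percentile (1562 to 2542 units). Control and outlier spots were left out and repeated spots averaged. Probes entered the test if they were well above background on 4 or more of the 12 arrays and had 3 or more unmarked spots in every group, and the probe with the highest mean stood for a locus. The tests were two-sided moderated tests from limma 3.58.1 (R 4.3.3), fitted to the 12 arrays together with lmFit and eBayes, which leaves 9 residual degrees of freedom. P-values were adjusted by Benjamini-Hochberg over 20640 loci, and the threshold was 0.05. The fit was tested on simulated data. Precision is limited by the number of arrays, and the median SE of a log2 difference was 0.144. A RefSeq gene table (assembly TAIR10.1) gave names and gene order. It listed 20521 of the tested loci and a symbol for 9080 of them.

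The members and lists were chosen with earlier results of these data known. Named genes were FUM1 and FUM2 at every probe, in each comparison and list the passing members (at most the 4 largest changes) or the member with the smallest p, the nearest tested neighbours, the 5 loci with a symbol best correlated with each fumarase, and GLK1 and GLK2. FUM1 and FUM2 were not counted in the lists.

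Replicate numbers are shared by all groups. As a check of pairing, the deviation of each wild-type array from its group mean was set against that of the mutant array of the same number. These correlated at 0.32, 0.38, 0.46 and 0.76 across loci, so the numbers were taken to pair these arrays. The main fit and the permutation tests did not use these pairs, and a replicate block was run as an alternative. For GLK1-SRDX the correlations ran from -0.20 to 0.26 with wild type and from -0.096 to 0.58 with glk1 glk2, and the numbers were not taken as pairs. The planned normexp alternative used the median spot signal, since the files used here carry no mean signal.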

Additional observations from a re-analysis of the deposited data

How the results depend on the processing

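FUM2 kept its direction in all 3 comparisons under every alternative run. Against wild type it was at -2.08 and -2.68 (glk1 glk2 and GLK1-SRDX) with the mean of the FUM2 probes, and at -1.74 and -2.20 with the dimmer probe, an alternative chosen after seeing the data. Leaving out single arrays gave -2.57 to -2.30 and -3.34 to -3.02. Between the lines leave-one-out values ran from -0.93 to -0.61, with the call at -0.93 without GLK1-SRDX array 4. With the replicate block the adjusted p of FUM2 between the lines was 0.169. FUM1 reversed to -0.12 in glk1 glk2 with the authors' value table and passed at 0.33 in GLK1-SRDX with median scaling.

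Counts moved more. List members called in glk1 glk2 were 9 with median scaling, 2 with quantile normalization, 1 with normexp, 0 with the value table, 2 without the dim-probe filter, 2 with only both groups in the fit and 2 to 15 on leaving out single arrays. Against wild type GLK1-SRDX had 22 with median scaling, 6 with normexp, 3 with the value table and 4 to 12 leaving out arrays, while the root covariate gave 15 (4 higher, 11 lower), 1 of them among the 10. Between the lines there were 1 with normexp, 4 with only the groups compared, 3 with the replicate block, 21 with the root covariate and 4 to 18 leaving out arrays.

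Over all loci, 671 calls in glk1 glk2 (441 higher, 230 lower) became 1654 with median scaling (1493 higher, 161 lower), 144 with normexp, 136 with the value table (4 higher, 132 lower), 443 without the filter, 111 with only the groups compared, 1365 with the replicate block and 229 to 3177 leaving out arrays, the highest without mutant array 3. The 2972 calls in GLK1-SRDX (1671 higher, 1301 lower) became 4414 with median scaling (3481 higher, 933 lower), 878 with normexp, 909 with the value table and 1523 to 4444 leaving out arrays. The root covariate gave 3042 there, and quantile normalization gave 778 in glk1 glk2. The 1911 between the lines (1172 higher, 739 lower) became 1154 with median scaling, 294 with normexp, 1271 with only the groups compared, 726 with the replicate block, 3898 with the root covariate and 1005 to 2684 leaving out arrays, and the value table gave 1550 (1402 higher, 148 lower). Median scaling moved all loci by 0.19 and 0.18 against wild type, and the value table by -0.19, 0.10 and 0.29.

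Neighbours and FUM2-like genes that turned sign had small differences or dim signals. In glk1 glk2 these were ERF71 (-0.80 with normexp), AT5G50930 (0.14 with median scaling, 0.12 with quantile normalization and -0.11 to 0.023 leaving out arrays, above 0 without mutant array 2), NBP35 (-0.038 with the value table) and VPS22 (0.042 with median scaling). In GLK1-SRDX they were ERF71 (-0.81 with normexp and -0.083 to 0.84 leaving out arrays, below 0 without GLK1-SRDX array 2) and AT5G50930 (-0.47 with normexp). The cause of these shifts was not tested. With 4 arrays per group, small differences such as those of FUM1 are limited by the spread between arrays, and slide 3 holds GLK1-SRDX alone.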
